A study of Mus musculus with 4 samples.

Results

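Cytosolic ribosomal proteins were examined in mouse splenic regulatory T cells, the CD4 T cells that express Foxp3 and restrain immune responses. The members were taken by name. They are the transcript clusters (the array's gene-level probe groups) whose only platform symbol was Rpl or Rps plus a number with at most 1 letter a, l, x or y, or was Rplp0, Rplp1, Rplp2 or Rpsa. Names with -ps (pseudogenes) and the Rps6k kinases were left out. This gave 44 clusters with 38 symbols among 30390 clusters that carry 1 symbol.

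The study compared 2 genotypes with 2 arrays each. The arrays labelled WT (replicates 1 and 3) came from Foxp3EGFP-cre mice crossed to C57BL/6, and those labelled KO (replicates 1 and 2) from the same transgene crossed to BMI1-flox C57BL/6. Both groups therefore carry the Cre transgene, which makes Cre and green fluorescent protein only where Foxp3 is active, and the series text writes the second group as BMI1-/-. Mice were 7 to 8 weeks old, and 15000 to 40000 GFP-positive CD4 cells were sorted per sample. The titles and the treatment field describe cells without stimulation, whereas the series text has 24 hours of CD3 and CD28 stimulation. The sources used here leave this contradiction unsettled. Whether each sample is a separate animal is not stated. The p-values therefore reflect the spread among these 4 arrays, which may be technical, and precision is limited by their number.

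Values are log2 expression from robust multi-array averaging. Array medians lay between 4.65 and 4.72. Bmi1 read 8.98 and 8.98 in the arrays labelled WT and 9.58 and 9.91 in those labelled KO, against the direction of the label (difference 0.77, SE 0.16, limma adjusted p 0.292). Which exons its cluster covers is not given in the sources used here, so every direction below rests on the labels. Of 10 markers of regulatory and CD4 T cells, 7 had a cluster of their own, with mean levels of 13.3 in both arrays labelled WT and 13.4 and 13.3 in those labelled KO. Foxp3 had none. Within that list 4 were higher and 3 lower, and Cd3e, a chain of the T cell receptor complex, read 16.28 and 16.32 against 16.91 and 16.82 (difference 0.57, SE 0.06, limma adjusted p 0.140). Myeloid markers averaged 4.48 to 4.65 over the 4 arrays and erythroid markers 4.51 to 4.61, near the array median. Of 8 myeloid markers 1 was higher and 7 lower with KO (2 with an unadjusted limma p under 0.05, both lower, background 3.78%), and both erythroid markers were lower. B cell markers averaged 5.09 to 5.37, and 0 of 5 were higher and 5 lower. Of 6 plasma cell markers 5 were higher and 1 lower with KO, with list means of 6.40 and 6.63 against 6.69 and 6.69. Mzb1 alone among them had an unadjusted limma p under 0.05, with a higher mean (background 6.40%). Of 6 CD8 and NK markers 4 were higher and 2 lower, with list means of 5.59 and 5.88 against 5.87 and 6.18. Eomes alone among these had an unadjusted limma p under 0.05, at 6.80 and 6.91 against 7.37 and 8.49 (limma adjusted p 0.433). Cd8b1 read 9.74 and 10.78 against 10.71 and 11.26 and overlapped, whereas Cd8a stayed between 4.07 and 4.23. What part such cells have in the ribosomal protein values was not tested.

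Ribosomal proteins clothe the ribosomal RNA of the small and large subunits, and their genes are among the most actively transcribed in any growing cell. Their mRNAs begin with a C followed by a run of pyrimidines, the terminal oligopyrimidine tract, through which mTORC1 and LARP1 adjust their translation. Activated T cells raise ribosome production as they enter growth, and loss of single ribosomal proteins, Rpl22 among them, is known to affect T cell development selectively.

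The start sites of members whose annotated transcript opens with this tract are shown, because the tract is the sequence feature these genes are best known to share. RefSeq windows of 300 bases (250 before and 50 from the start, build GRCm38.p6) matched 32 of the 38 symbols. Rpl6l, Rpl7, Rpl8, Rps14, Rps20 and Rps29 had no entry. Each line gives 15 bases before and 15 from the start, 5′ to 3′ on the gene's strand, with the pyrimidine run in capitals.
Rps10 (chr17:27635230-27635259, minus strand): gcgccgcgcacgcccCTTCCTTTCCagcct
Rps18 (chr17:33955651-33955680, minus strand): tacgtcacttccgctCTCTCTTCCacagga
Rpl35 (chr2:39005117-39005146, minus strand): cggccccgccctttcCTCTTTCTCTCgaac
Rpl38 (chr11:114668565-114668594, plus strand): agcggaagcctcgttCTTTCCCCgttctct
Rpl32l (chr10:20208424-20208453, plus strand): aaataaaatgaccagCTTCTTCCTTggtgc
A C followed by at least 4 pyrimidines stood exactly at the annotated start in 5 of 40 member windows (12.5%) and in 2.51% of all 32851 windows. Allowing for an imprecise start, a C followed by 6 pyrimidines anywhere in the 20 bases around it was found in 13 of the 40 windows (32.5%) against 9.01% of all; this wider search was added after the first had been counted.

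The motif CCGGAAG, the core bound by ETS factors such as GABPA, was searched on both strands of the same windows. It occurred in 15 of 40 member windows (37.5%) and in 8.86% of all windows. AAGATGGC, a core of YY1 sites, was in 1 member window (2.50%) against 2.75% of all, and TATAAA in 5 (12.5%) against 13.6%. The 4 genes below hold CCGGAAG (capitals; CTTCCGG where it lies on the other strand) and are shown because their differences had opposite signs.
Rps26 (chr10:128626703-128626732, minus strand): tttaatcttccgCCGGAAGgttaaatagtt
Rpl39 (chrX:37085182-37085211, minus strand): tctaatcgcgttCTTCCGGtcccggccttt
Rpl39l (chr16:10170124-10170153, plus strand): aatttgccgtacCCGGAAGcgctggaagct
Rps27l (chr9:66946083-66946112, plus strand): gccgcctctatcCCGGAAGttgctgagggg
Rps26 and Rpl39 had higher means with KO and Rpl39l and Rps27l lower ones, so the motif occurs on both sides. Of the other genes with the motif, Rpl6, Rpl11, Rpl19, Rpl35, Rpl38, Rps7, Rps10, Rps18 and Rpsa had higher means. Rpl31 had a lower mean, and the clusters of Rpl41 had opposite signs. The equal split of the genes shown is thus a result of how they were picked. Rpl39l holds another match that is not shown. These matches describe the letters in the windows and nothing about what binds there.

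Most ribosomal protein clusters had slightly higher means in the arrays labelled KO, and none passed the test. Of the 44, 38 had a difference above 0 and 6 below 0, where 51.1% of all clusters were above 0. After a further quantile normalization the count was 32 of 44. The median difference was 0.13 on the log2 scale, with a middle range of 0.07 to 0.21, against a median of 0.005 over all 30390 clusters. With limma and Benjamini-Hochberg adjustment over all clusters, 0 of the 44 passed an adjusted p under 0.05 (lowest adjusted p 0.288), where 0.00658% of all clusters were called, 2 in number. At an unadjusted limma p under 0.05 there were 13 members with higher means (29.5%, background 6.40%) and 1 with a lower mean (2.27%, background 3.78%). The 14 became 6 under quantile normalization, 7 without either WT replicate, 9 without KO replicate 1 and 5 without KO replicate 2.

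Both arrays labelled KO lay above both labelled WT for 32 members (72.7%, background 21.0%) and below both for 4 (9.09%, background 17.5%). The 4 were Rpl39l, Rpl31, Rps27l and Rpl37a. Replicates were close: the wider of the 2 within-group gaps had a median of 0.09 for ribosomal protein clusters, against 0.19 for the clusters of equal level.

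**Figure D1:**
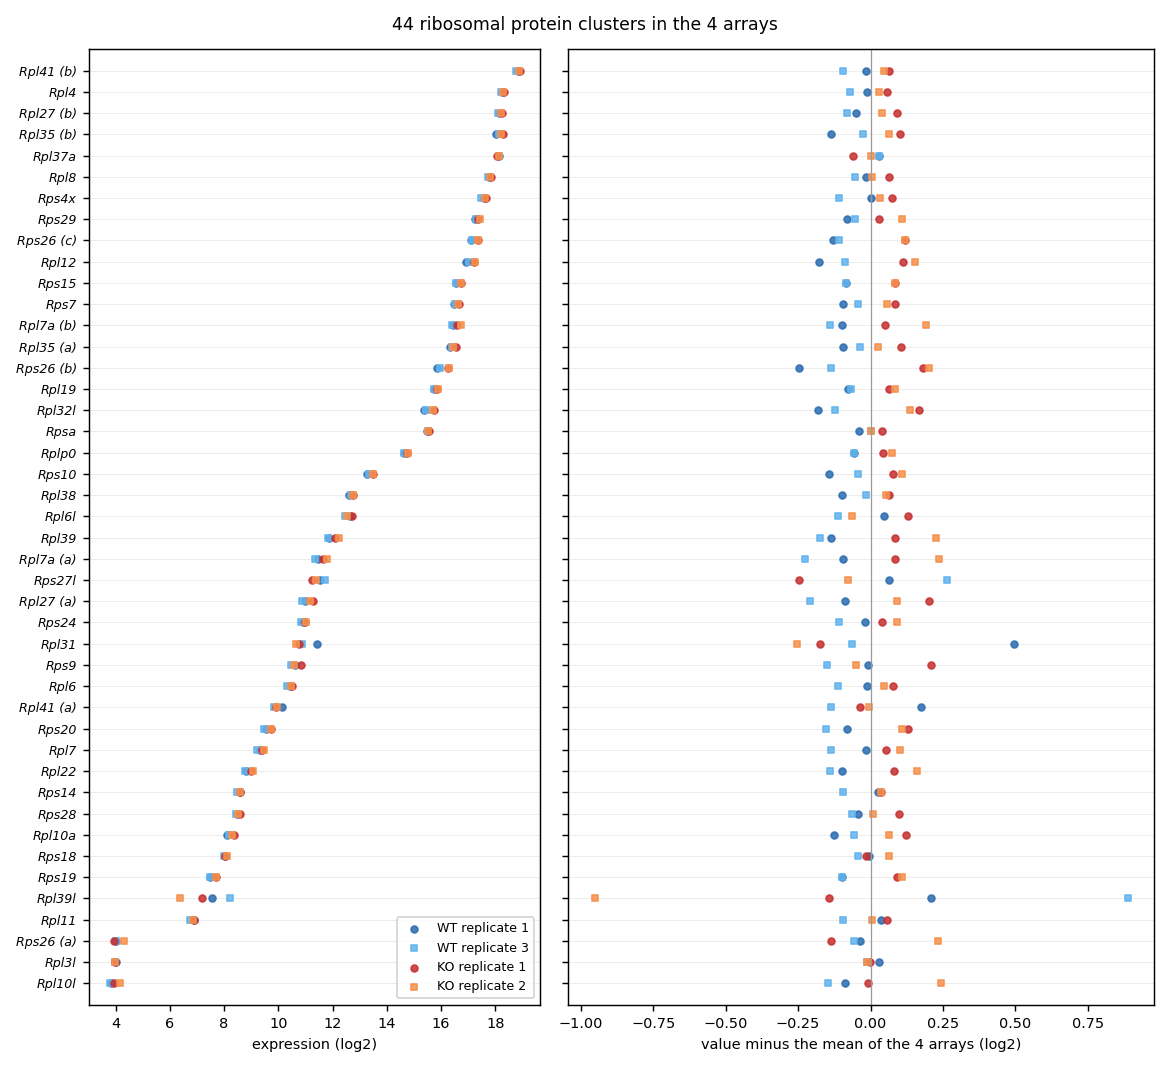
Values of the 44 ribosomal protein clusters in the 4 arrays, as log2 expression (left) and as the value minus the cluster's own mean over the arrays (right), ordered by mean level; letters a to c mark several clusters of 1 symbol, from low to high. In the right panel the arrays labelled KO lie above both labelled WT for 32 clusters, and Rpl39l and Rpl31 spread far more widely than the rest.

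The same counts depend on level. The difference was larger at brighter levels across the whole array: other clusters between 4 and 6 had a median difference of -0.005, those between 12 and 14 of 0.13, those between 14 and 16 of 0.195 and those between 16 and 18 of 0.185. Above 18 it was 0.13, and 101 of the 104 other clusters there were above 0. Each ribosomal protein cluster was therefore set beside the 200 other clusters nearest to it in mean level. At the bright end these span a wide range: 17.21 to 19.06 for Rpl4 (mean 18.27), against 8.18 to 8.28 for Rpl10a (mean 8.23). Those neighbours had a median difference of 0.12, and the ribosomal protein clusters minus their neighbours had a median of 0.02 with a middle range of -0.06 to 0.10. That value is smaller than the spread between arrays of 1 group, an SD of 0.04 for each array's median deviation relative to neighbours. The share with an unadjusted limma p under 0.05 and a higher mean was 29.5% for ribosomal protein clusters and averaged 28.7% among their neighbours. The share with both arrays labelled KO above both labelled WT was 72.7% against 49.2%. On average 10.1% of the neighbours were ribosomal protein pseudogenes by name (22.8% for members brighter than 14 and 0.54% for the dimmer ones). The median over all 44 was 0.02 with them left out too. That value covers the 44 together and not the brighter members alone. Rps3a2 and Rps3a3 carry no -ps and stayed among the neighbours, so leaving out the pseudogenes does not clear the neighbours of ribosomal protein sequences.

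**Figure D2:**
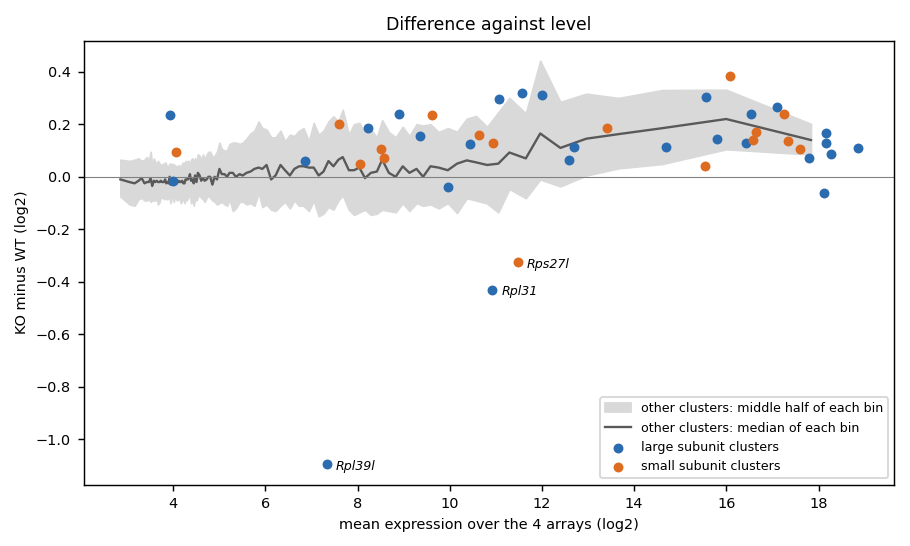
Difference KO minus WT (log2) against mean expression (log2) for the 44 ribosomal protein clusters, by subunit; the line and the grey area give the median and the quartiles of all other clusters in bins of equal number. Most ribosomal protein clusters lie between 0 and 0.4, and the grey median itself climbs to about the same height at the bright end; Rpl39l, Rpl31 and Rps27l lie below it.

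By median, bright ribosomal protein clusters lay slightly below their neighbours and dim ones above, and neither distance was tested. A boundary of 14 was chosen after the values were seen. The 19 clusters above it had a median difference of 0.14 and stood at -0.03 relative to their neighbours, with 6 of 19 above. That distance is smaller than the SD of 0.04 between arrays of 1 group given above for all members. The 25 clusters at or below the boundary had a median of 0.13 and stood at 0.08 relative to their neighbours, with 18 of 25 above. After median centring both values were unchanged to 2 decimals, and after quantile normalization the brighter clusters stood at -0.04 relative to their neighbours and the dimmer at 0.07. Without WT replicate 3 the dimmer clusters lay 0.015 above and without WT replicate 1 they lay 0.13 above, so their distance rests on these arrays. The bright clusters stood between -0.07 and -0.02 whichever of the 4 arrays was left out. Under quantile normalization the bright clusters' own median fell from 0.14 to 0.02, with 12 of 19 above 0.

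**Figure D3:**
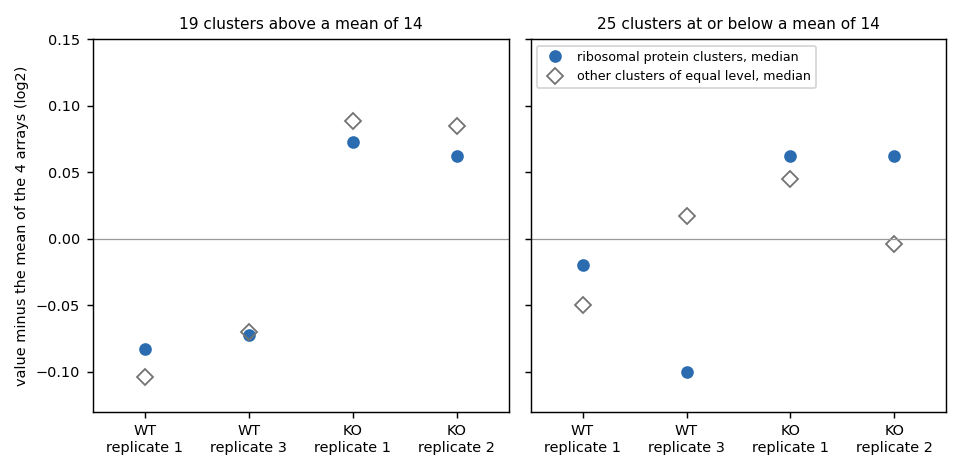
Median value minus the cluster's own mean over the 4 arrays (log2) in each array, for ribosomal protein clusters (circles) and for other clusters of equal level (open diamonds), above and at or below a mean of 14. Bright clusters follow their neighbours in every array, while dim clusters lie apart from theirs most in WT replicate 3 (-0.10 against 0.02).

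In the small subunit 16 of 17 clusters had higher means with KO, with a median of 0.14. Rps26, which lines the channel where mRNA leaves and is a Diamond-Blackfan anaemia gene, had the 2 smallest p-values of all members. Its brightest cluster, TC1000003155.mm.1, read 17.12 and 17.14 in WT replicates 1 and 3 and 17.37 in both KO replicates. The groups did not overlap (difference 0.24, SE 0.05, limma adjusted p 0.288), in a cluster named here for its small p. Its neighbours' median was 0.18, and 80.5% of them also had both arrays labelled KO above both labelled WT. A second cluster, TC0800002879.mm.1, read 15.84 and 15.95 against 16.27 and 16.29 (difference 0.39, SE 0.07, 95% interval 0.22 to 0.55, limma adjusted p 0.288), again without overlap. The median of its neighbours was 0.22, and 73.0% of them were so placed. Another, TC1200000716.mm.1, lay near the floor at 4.03, 4.01, 3.93 and 4.30, and its groups overlapped.

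Rps15, a protein of the head of the small subunit, read 16.56 in both arrays labelled WT and 16.73 in both labelled KO. The replicates were identical to 2 decimals, and the difference of 0.17 (SE 0.05) had a limma adjusted p of 0.394. Its neighbours' median was slightly larger, at 0.20. Rps7, one of several ribosomal proteins that bind Mdm2, read 16.48 and 16.53 against 16.66 and 16.63, and Rps29 17.25 and 17.28 against 17.36 and 17.44, both without overlap. Rps19, the first gene linked to Diamond-Blackfan anaemia, read 7.50 in both arrays labelled WT and 7.69 and 7.71 with KO, 0.16 above its neighbours. Rps20 read 9.53 and 9.46 against 9.74 and 9.72, also 0.20 above them. The dim members of the small subunit that were separated in this way had wider standard errors (0.12 for Rps19 and for Rps20) than the bright ones. Rps4x, the X-linked form of Rps4, read 17.59 and 17.48 against 17.66 and 17.62, a difference of 0.11 that turned to -0.01 under quantile normalization. Rpsa, also known as a laminin receptor precursor, read 15.49 and 15.53 against 15.57 and 15.53. Its groups met at 15.53, and its difference of 0.04 stood at -0.17 relative to its neighbours and turned to -0.05 under quantile normalization.

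In the large subunit 22 of 27 clusters had higher means, with a median of 0.13 and a median of 0.00 against neighbours. Under quantile normalization the large subunit's median fell to 0.036 with 19 of 27 higher, and the small subunit's was 0.12 with 13 of 17 higher. Rpl12, which sits at the base of the stalk that recruits translation factors, read 16.93 and 17.02 against 17.22 and 17.26. The groups did not overlap (difference 0.27, SE 0.06, limma adjusted p 0.295), and the difference lay 0.07 above its neighbours. Rplp0, the stalk protein itself, read 14.64 in both arrays labelled WT and 14.74 and 14.77 with KO. Its difference of 0.12 (SE 0.07) stood at -0.08 relative to its neighbours and became -0.02 under quantile normalization. Rplp1 and Rplp2 had no cluster of their own.

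Rpl7a had 2 clusters with differences of the same sign, TC0200000457.mm.1 with 11.47 and 11.34 against 11.65 and 11.80, and TC0900001105.mm.1 with 16.44 and 16.40 against 16.59 and 16.73. Their differences were 0.32 (SE 0.13) and 0.24 (SE 0.07). Rpl27 behaved similarly at 10.98 and 10.86 against 11.27 and 11.16 (TC1100001656.mm.1, difference 0.30, SE 0.12) and at 18.12 and 18.09 against 18.26 and 18.21 (TC1800000044.mm.1, difference 0.13, SE 0.04). Rpl35, which lies at the exit of the nascent chain tunnel, read 18.03 and 18.14 against 18.27 and 18.23 (TC0100001414.mm.1), and 16.34 and 16.40 against 16.54 and 16.46 (TC0200003433.mm.1). The second turned to -0.01 under quantile normalization. Rpl41, the smallest ribosomal protein, had clusters that differed: TC1400001207.mm.1 read 18.83 and 18.75 against 18.91 and 18.89, whereas TC1000003151.mm.1 read 10.14 and 9.83 against 9.93 and 9.96. The latter overlapped between groups, and its difference of -0.04 turned to 0.12 without WT replicate 1.

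Rpl22, needed for the development of T cells with alpha-beta receptors, read 8.81 and 8.77 against 8.99 and 9.07. Its groups were separate, and the difference of 0.24 (SE 0.13) lay 0.22 above its neighbours with a limma adjusted p of 0.603. Of the start-site genes shown above, Rps10 read 13.26 and 13.36 against 13.48 and 13.51, and Rpl38 12.60 and 12.68 against 12.76 and 12.75. Rps18 read 8.05 and 8.01 against 8.04 and 8.12 and overlapped. Rpl35 and Rpl32l, also shown there, were among the members with the 8 smallest p upward. The members not described singly, Rpl4, Rpl6, Rpl7, Rpl8, Rpl10a, Rpl19, Rps9, Rps14, Rps24 and Rps28, had differences from 0.07 to 0.19, and of these Rps9 overlapped between groups. Rpl11, another Mdm2-binding protein, read 6.89 and 6.76 against 6.91 and 6.86 and overlapped. Rpl37a went the other way from most: 18.15 in both arrays labelled WT and 18.06 and 18.12 with KO, or -0.20 relative to its neighbours (difference -0.06, SE 0.04, limma adjusted p 0.717). Rpl31 read 11.42 and 10.86 against 10.75 and 10.67 on a cluster with another chromosome in its identifier. The groups did not overlap, but the WT replicates lay 0.56 apart, more than the group means (difference -0.43, SE 0.21, limma adjusted p 0.574).

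**Figure D4:**
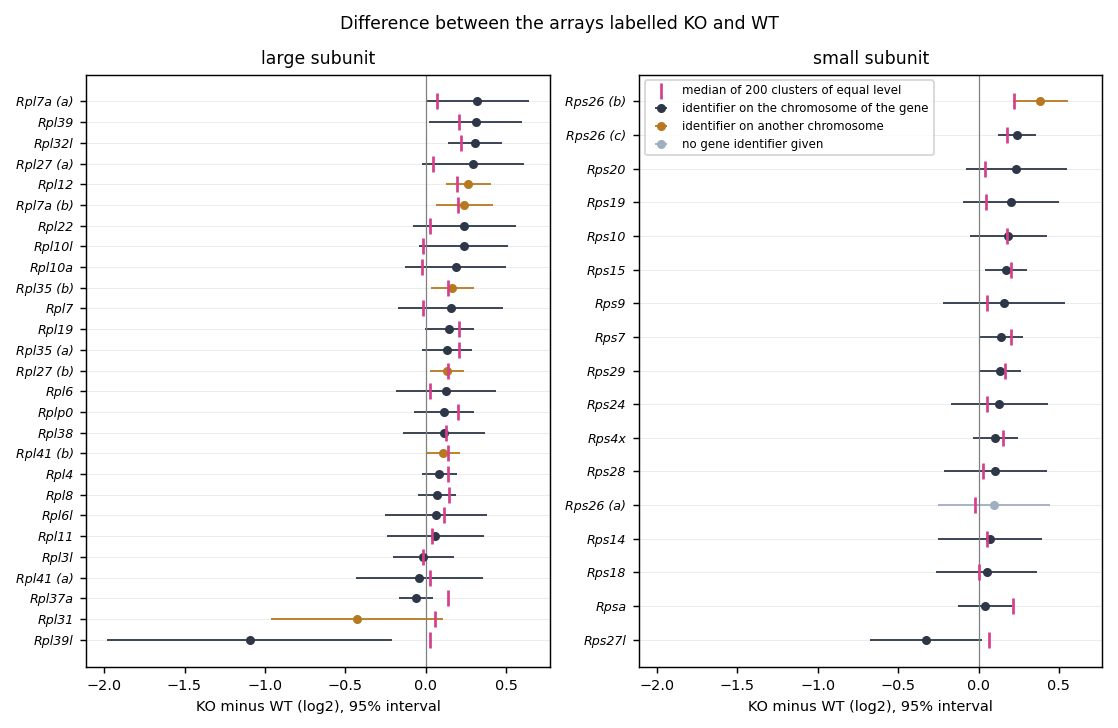
Difference KO minus WT (log2) of each ribosomal protein cluster with its 95% interval from limma, by subunit; pink bars mark the median difference of the 200 other clusters nearest in level. Intervals of Rps26 (b and c), Rpl12 and Rpl32l exclude 0 by the widest margins among the higher clusters and that of Rpl39l among the lower; the pink bar lies inside every interval other than those of Rpl37a, Rpl39l, Rps27l and Rpsa.

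Among 6 clusters of paralogs, named with a final l, 3 were higher and 3 lower, with a median of 0.025. Of the 38 other clusters 35 were higher, with a median of 0.13, and this difference was not tested. The paralogs were dimmer (median level 9.41 against 13.1), and on average 60.3% of their neighbours in level were higher against 74.4% for the others. Their median was -0.025 without WT replicate 3 or KO replicate 1 and 0.075 without WT replicate 1. The largest difference of any member was that of Rpl39l, a paralog of the tunnel protein Rpl39 best known from testis. Rpl39l read 7.54 and 8.22 in WT replicates 1 and 3 and 7.19 and 6.38 in KO replicates 1 and 2. The groups did not overlap, but the WT arrays lay 0.68 apart and the KO arrays 0.81 apart (difference -1.10, SE 0.35, 95% interval -1.98 to -0.21, limma adjusted p 0.412). On the linear scale the ratio of KO to WT was 0.468. Rpl39 itself read 11.87 and 11.83 against 12.09 and 12.23, the opposite direction (difference 0.31, SE 0.11, limma adjusted p 0.463). The difference between these 2 effects was not tested.

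Rps27l, a paralog of Rps27 induced by p53, read 11.54 and 11.74 against 11.23 and 11.40. Both KO arrays lay below both WT arrays, and the difference was -0.33 (SE 0.14, limma adjusted p 0.514), or -0.39 relative to its neighbours. Rps27 had no cluster of its own. Rpl32l, named as a copy of Rpl32, read 15.38 and 15.44 against 15.73 and 15.70 without overlap (difference 0.31, SE 0.07, limma adjusted p 0.301). The median of its neighbours was 0.22. Rpl6l, a pseudogene in RefSeq, overlapped between groups at 12.63 and 12.47 against 12.71 and 12.52. Rpl3l, the striated muscle form of Rpl3, read 3.98 to 4.02 in the 4 arrays, below the array medians. Rpl10l, a retrogene of Rpl10 active in male germ cells, read 3.85 and 3.79 against 3.93 and 4.18, also below them. Both levels lie where most dim clusters of the table lie.

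The chromosome coded in a cluster's identifier was compared with that of the gene in RefSeq, since processed copies of ribosomal protein genes are scattered over the mouse genome. Over 22443 clusters with 1 symbol and a matched gene, 99.59% had the same chromosome. Among ribosomal protein clusters 36 had the same, 7 another, and 1 (of Rps26) carried no gene identifier. The 7 were clusters of Rpl7a, Rpl12, Rpl27, Rpl31, Rpl35, Rpl41 and Rps26, so their values may belong to a copy of the gene and cannot be told apart from the parent's by these data. Of these 7, 6 had higher means with KO, all 6 with an unadjusted limma p under 0.05 (background 6.40%), and their median difference was 0.17. These clusters are bright, with a median level of 17.1, and 49.2% of their neighbours in level passed the same threshold. Of the 36 on the gene's chromosome, with a median level of 11.5, 31 were higher, with a median of 0.13, and 7 passed (19.4%, neighbours 25.4%). Relative to neighbours the medians were 0.025 and 0.01. Whether probes of the other clusters also match gene copies was not tested. A further 53 clusters that name a ribosomal protein beside other symbols gave no member.

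Pseudogenes of ribosomal proteins, left out by name, mostly had higher means too. Of 202 clusters 198 had higher means, with a median of 0.23, and 0 passed at a limma adjusted p under 0.05 (135 had an unadjusted p under 0.05, all higher, background 6.40%). Their median level was 16.1, and other clusters between 16 and 18 had a median difference of 0.185, with 92.3% higher. Those 273 other clusters include 64 of the pseudogenes, so the pseudogenes are partly set beside themselves. Among the neighbours of members brighter than 14, on average 53.4% had an unadjusted limma p under 0.05 and a higher mean. After quantile normalization the pseudogenes' median was 0.15 with 182 higher. Rpl32-ps read 16.44 and 16.48 against 16.84 and 16.90. Rps23-ps, the brightest, read 19.31 and 19.30 against 19.38 and 19.38, a difference of 0.075. Fau, which encodes the small subunit protein made as a fusion with a ubiquitin-like domain, had 2 clusters at 15.01 and 15.41 against 15.52 and 15.58, and at 12.68 and 12.72 against 12.79 and 12.87. The identifiers of these 2 clusters name different chromosomes, and whether either reads a copy of the gene was not tested. Rpl22l1, the paralog of Rpl22, read 15.67 and 15.62 against 15.88 and 16.01 (difference 0.30, SE 0.07, limma adjusted p 0.347). Rpl7l1 overlapped between groups.

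The wider machinery of ribosome production gave 0 calls at a limma adjusted p under 0.05 in any list. Of 18 listed translation factors and related genes with terminal oligopyrimidine mRNAs, 17 were measured. All 17 had higher means (background 51.1%), with a median of 0.11 and 2 at an unadjusted limma p under 0.05 (background 6.40%). The count of 17 became 12 both under quantile normalization and without KO replicate 1. The median level of the list was 13.4, and other clusters between 12 and 14 had a median difference of 0.13, with 73.1% higher. Eef1a1, the elongation factor that delivers aminoacyl-tRNA, read 18.57 and 18.51 against 18.61 and 18.60, and turned to -0.05 under quantile normalization. Eif3k, a subunit of initiation factor 3, read 14.72 and 14.73 against 14.91 and 14.99. Vim, whose mRNA also carries such a tract, had the largest difference of the list, at 12.94 and 13.03 against 13.47 and 13.45 (0.48, SE 0.10, limma adjusted p 0.292). Among other initiation factors 15 of 22 clusters were higher, with a median of 0.12 that became 0.047 under quantile normalization, 0.04 without WT replicate 1 and 0.07 without KO replicate 1. The smallest p was that of Eif3b, at 10.63 and 10.87 against 11.23 and 11.19. In ribosome biogenesis 39 of 58 were higher, with a median of 0.07, and 4 had an unadjusted p under 0.05, all higher, near the background of 6.40%. The median was 0.015 with 32 of 58 higher without WT replicate 1, and 0.12 without KO replicate 2 and 0.11 without WT replicate 3. Nop58, a core protein of box C/D particles, read 11.82 and 11.87 against 12.25 and 12.23, without overlap. Npm1, the abundant nucleolar chaperone, differed by 0.13 (SE 0.06) and Fbl, the methyltransferase of those particles, by 0.06 (SE 0.10).

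Genes of RNA polymerase I and its factors were split, with 9 of 15 higher, 5 lower and 1 equal (median 0.05, which turned to -0.03 without WT replicate 1 and -0.01 without KO replicate 1, and was 0.08 and 0.14 without the other arrays). Polr1d read 8.94 and 9.01 against 9.39 and 9.23, and Polr1b, the second largest subunit, 7.81 and 7.87 against 7.58 and 7.60, the opposite way. Genes of mTORC1 and MYC control were split too, with 10 of 19 higher and 9 lower (median 0.01, between -0.035 and 0.03 when 1 array was left out). Mlst8, a subunit of mTORC1, read 7.33 and 7.44 against 6.96 and 6.86. Mxd4, a MYC antagonist, read 10.22 and 10.72 against 11.28 and 10.90, and Pdcd4, an inhibitor of translation initiation, 15.80 and 15.93 against 15.72 and 15.56. Hosts of small nucleolar RNAs gave 6 clusters of 3 genes, all higher, with a median of 0.15 that became 0.05 under quantile normalization. Most of the 6 were of Hspa8, at mean levels of 18.70 to 18.95, and 97.1% of clusters above 18 outside the members, these included, were higher. With 1 cluster per symbol the median over the 3 genes was 0.535. That is the difference of Snhg6, which read 7.19 and 6.89 against 7.61 and 7.54. The identifiers of the Hspa8 clusters name several chromosomes, and whether they read copies of the gene was not tested. Snhg5, a host of small nucleolar RNAs whose transcript has a terminal oligopyrimidine tract, differed most of all the genes in these lists: 8.55 and 8.97 against 9.79 and 9.70 (0.99, SE 0.18, limma adjusted p 0.288). Mitochondrial ribosomal proteins, which serve the separate ribosome of that organelle, had 59 of 78 clusters higher and a median of 0.12, at a median level of 8.61 against 12.3 for the cytosolic clusters. Other clusters between 8 and 10 had a median of 0.025, with 54.0% higher. The mitochondrial set keeps names with -ps, such as Mrpl23-ps1 and Mrps36-ps2, which the cytosolic set leaves out. The mitochondrial median was 0.055 with 50 of 78 higher without WT replicate 1, where the cytosolic median was 0.14, and 0.14 under quantile normalization, where the cytosolic median was 0.09. In the mitochondrial set WT replicate 3 minus WT replicate 1 had a median of 0.13, in the cytosolic set of -0.04.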

How the data were processed

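A single table holds the log2 values that the authors deposited for 65528 transcript clusters and 4 arrays, made with RMA and Transcriptome Analysis Console per the submitters' processing notes; no version, build or background step is named. Of these clusters 30390 had exactly 1 distinct platform symbol, 2127 had several and 33011 were not listed. The 30390 were fitted by genotype, KO against WT, using limma 3.58.1 under R 4.3.3 (lmFit, eBayes with intensity trend, two-sided, Benjamini-Hochberg adjustment), which was also tested on simulated data. An exact permutation test of 2 against 2 arrays cannot go below a two-sided p of 0.333. Neighbours of equal level were the 200 other clusters nearest in mean. Members and lists were chosen with earlier results of these data known. Named are the members with the 8 smallest p upward and 6 downward, the 3 largest differences each way, symbols with several clusters, the stalk genes, Rpsa, fixed paralog pairs, Bmi1 and, from each list, genes among the 2 with the smallest p and the 2 with the highest level. Other members described singly (such as Rps7, Rps19, Rps20, Rps29, Rpl6l, Rpl11 and Rpl22) were chosen after their values were seen. Alternatives changed scaling, filter, clusters per symbol, variance model, window and arrays. Protein sequences were not used here.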

Additional observations from a re-analysis of the deposited data

How the results depend on the processing

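The median difference of ribosomal protein clusters (0.13) became 0.16 with each array centred on its median and 0.0871875 after quantile normalization, and ran from 0.12 to 0.14 when 1 array was left out. The count of higher clusters (38) ran from 36 to 40 without 1 array. The median relative to clusters of equal level (0.02) ran from -0.025 (without WT replicate 3) to 0.07 (without WT replicate 1), so its sign rests on the arrays labelled WT. Windows of 100 or 400 clusters moved it less than the spread between arrays. The count of clusters past a limma adjusted p of 0.05 (2) was 1 after centring, 14 with dim clusters left out, 4 over all 65528 clusters, and 0 after quantile normalization, without an intensity trend, with robust settings and without any 1 array, where limma gave 1700 to 3133 clusters an unadjusted p under 0.05. No ribosomal protein cluster was called under these settings, with 5 to 14 at an unadjusted p under 0.05. With 1 array left out, the lone array of a group is assumed to vary like the other group, so the absence of calls there says nothing about stability. The cause of these changes was not tested.

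Some single differences changed sign. After centring, Rpl3l became 0.01. After quantile normalization Rpl3l became 0.01, Rpl35 (TC0200003433.mm.1) -0.009375, Rplp0 -0.019375, Rps4x -0.008125, Rpsa -0.04625, Fbl -0.03375, Eef1a1 -0.05, Eif3h -0.015625 and Rpl18-ps1 -0.01375. With 1 array left out at a time, Rpl41 (TC1000003151.mm.1) ran from -0.195 to 0.115, Rpl3l from -0.035 to 0.005, Rps26 (TC1200000716.mm.1) from -0.09 to 0.28, Rpl7l1 from -0.045 to 0.315, Taf1b from -0.085 to 0.295, Fbl from -0.035 to 0.155, Eif3h from -0.065 to 0.135 and Mrps18c from -0.115 to 0.045.

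No paired analysis was possible because the groups share only replicate number 1. The table holds no detection calls or background measure, so signal over background is unknown for dim clusters.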

Other observations

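The 53 clusters that name a ribosomal protein beside other symbols entered no comparison. Of these, 51 had higher means in the arrays labelled KO, 1 lower and 1 equal, with a median difference of 0.13 on the log2 scale, the same as for the 44 clusters with 1 symbol, and the arrays labelled KO lay above both labelled WT for 41, where 21.0% of all clusters were so placed. Their median level was 13.1, and 46.6% of other clusters between 12 and 14 were so placed.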
